A study of Rattus norvegicus with 9 samples.

Results

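Immunoglobulin-family adhesion molecules of neurons were followed as 9 genes: Thy1, Ncam1, L1cam, Cntn1, Cntn2, Nrcam, Nfasc, Chl1 and Alcam. They were taken, out of 14217 genes with a probe set of their own on the array, as every probe set annotated with one of these symbols and no other. A probe set is a group of short probes that an Affymetrix array reports as 1 intensity. The rule found 18 probe sets: 5 for Nfasc, 3 each for Ncam1 and Nrcam, 2 for Thy1 and 1 each for the other 5 genes. Above the filter on low values lay 15 of them, with at least 1 for every gene; 1 of Thy1 and 2 of Nfasc lay below it.

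The tissue was ventral spinal cord of rat embryos (embryonic day 14), with 5 embryos to each of 9 pools. The labels do not say whether tissue or RNA was joined. The embryos of 4 pools carried mutant human SOD1 (titled G93R(Roth)), those of 4 pools wild-type human SOD1 (titled hSOD1(Chan)), and 1 pool without a replicate was the negative control (titled SDneg, although its description also speaks of positive embryos). SOD1 is an antioxidant enzyme, and its mutations cause inherited amyotrophic lateral sclerosis, in which motor neurons die. The labels name neither the promoter of the transgenes nor the number of founder lines, so mutation, line and insertion site cannot be told apart. The titles of replicates 2 to 4 of both transgenic groups carry a tag, le2, that the labels do not explain.

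Immunoglobulin-family adhesion molecules sit on the surface of neurons and bind to themselves or to each other across cell contacts, which lets axons grow along cells and bundle. Ncam1 can carry chains of polysialic acid that loosen such contacts. L1cam, Nrcam, Nfasc and Chl1 form the L1 family, whose members span the membrane and are anchored to ankyrin and the spectrin skeleton. The contactins Cntn1 and Cntn2 and the small protein Thy1 are held by a lipid anchor instead. In the embryonic cord Cntn2 (TAG-1) marks growing commissural and motor axons, Alcam is known from motor and sensory axons of chick embryos, and Thy1 comes on late in rodent neurons.

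All 10 neuronal markers lay above the filter (Tubb3 at 2641 to 3202 and Stmn2 at 5074 to 6189 over the 9 pools), as did the 6 of 8 motor neuron markers that the array held under 1 symbol (Isl1 at 298 to 605). Markers of other cells were mostly low: 0 of 3 for neural crest and Schwann cells, 0 of 4 for erythroid cells, 0 of 6 for macrophages, 1 of 8 for meninges and mesenchyme, 1 of 5 for endothelium, 2 of 5 for floor plate and 2 of 5 for muscle lay above the filter, against 5 of 6 for sensory ganglia and 6 of 8 for progenitors. No marker was at 0. Wild-type replicate 2 stood apart: its beta-actin 3'/5' ratio, which goes up as RNA breaks down, was 19.2, while the mutant pools had 6.98 to 7.98, the other wild-type pools 8.19 to 9.20 and the negative control 6.66. The mutant and wild-type pools did not overlap in this ratio, with or without that pool, and its part in the differences below was not tested beyond the values given with it. A fit with the ratio as a term cannot tell RNA quality and group apart. Array medians were 31.0 to 33.9.

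None of the member probe sets differed past the threshold in any comparison. Values below are intensities as the authors scaled them (means with SD), and differences are on the log2 scale after adding 8.25 to every intensity; they come from limma, with p-values adjusted over all 18625 probe sets tested and a threshold of 0.05. Between mutant and wild-type pools 0 of 15 member probe sets passed, where 0.0161% of all tested did. At an unadjusted p under 0.05 stood 2 of 15, Ncam1 1377368_at and Alcam, or 13.3%, beside 4.96% of all tested. The pools of the 2 groups were apart without overlap at 0 of 15, beside 2.96%. Mutant pools had the higher value at 8 and the lower at 7 of the 15 (53.7% of all tested were higher). The median size of the difference was 0.11 over the members and 0.096 over all tested, and the 95% intervals of the members reached 0.16 to 0.46 to either side.

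Against the negative control 0 of 15 passed, for both transgenes together, for mutant pools and for wild-type pools, as did 0.0% of all tested in each. At an unadjusted p under 0.05 stood 2 of 15 for both transgenes together (3.12% of all tested), 1 for mutant pools (2.29%) and 2 for wild-type pools (4.28%). Thy1 1369652_at is among those counted in each, and Ncam1 1379389_at is the other where 2 stood. An earlier look at these arrays had singled out Thy1 1369652_at, and it was tested through the transgenic pools. These counts are therefore a description and no result about the members. The transgenic value was the higher one at 7 of 15 for both transgenes together (46.5% of all tested), at 7 for mutant pools (47.8%) and at 10 for wild-type pools (45.7%); these comparisons share the 1 control pool. All 8 transgenic pools lay on 1 side of it at 5 of 15, or 33.3%, beside 19.7% of all tested. Above it were Thy1 1369652_at and Nfasc 1374164_at (9.19% of all tested), and below it Ncam1 1368320_at, Ncam1 1379389_at and Nrcam 1377001_at (10.5%). The singled-out Thy1 probe set thus enters this share too.

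**Figure D1:**
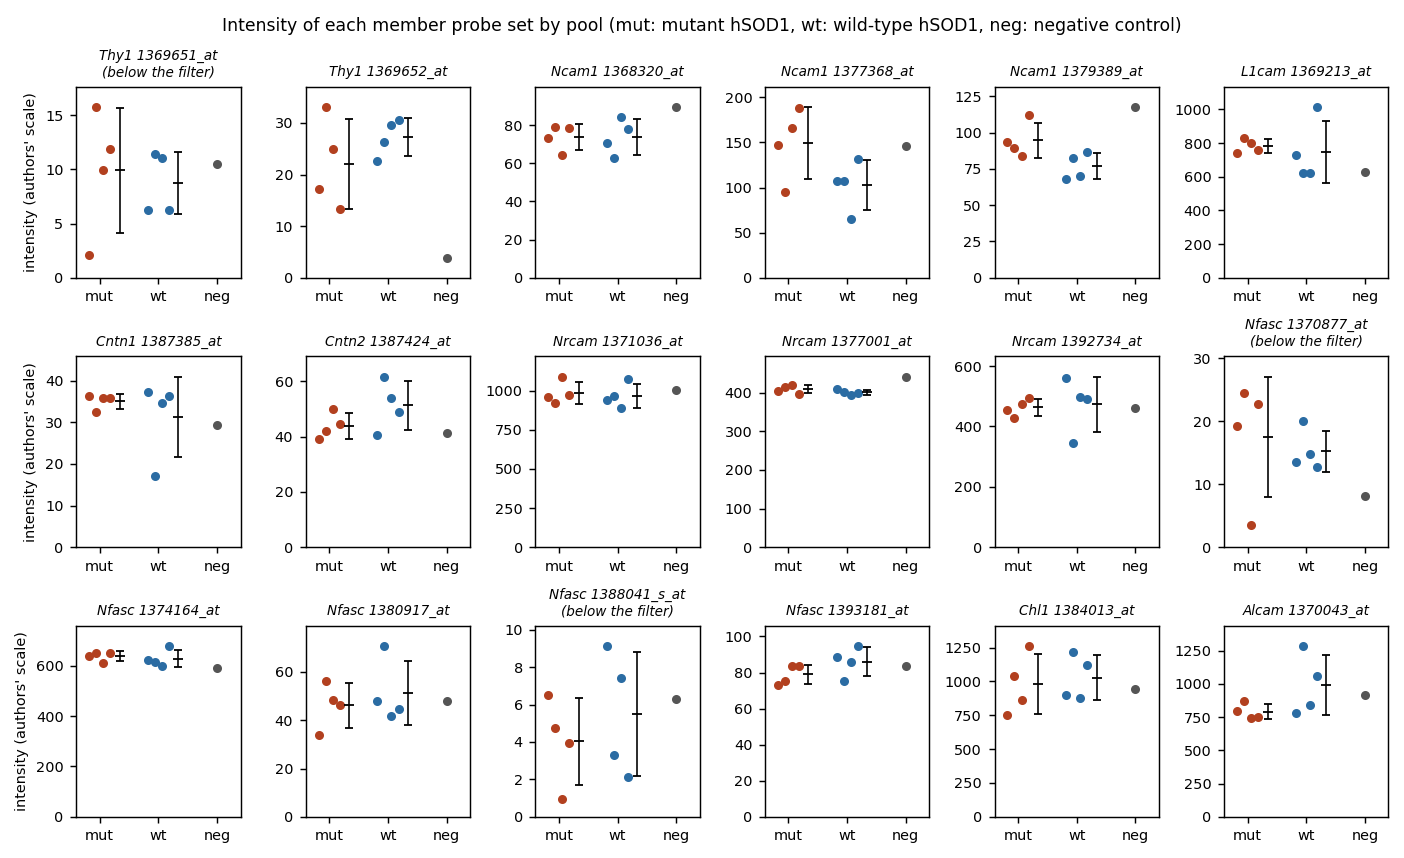
Intensity (y axis, authors' linear scale from 0) of the 18 member probe sets in every pool, with mutant hSOD1 left, wild-type hSOD1 in the middle and the negative control right; dots are pools and the black bar is the mean ± SD of a group of 4. Mutant and wild-type dots overlap in every panel, and on Thy1 1369652_at all 8 transgenic pools lie above the negative control at 3.74.

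Thy1, a small glycoprotein of the neuronal surface, showed the widest gap to the negative control among the members, on 1369652_at. The mutant replicates 1 to 4 had 17.1, 33.0, 24.9 and 13.2, the wild-type replicates 1 to 4 had 22.6, 26.3, 29.7 and 30.5, and the negative control had 3.74. All transgenic pools lay above the negative control, and mutant and wild-type pools overlapped. Both transgenes together were higher by 1.43 (SE 0.310, 95% interval 0.76 to 2.10, unadjusted p = 0.000484, limma adjusted p = 1.00). An earlier look at these arrays had already singled out that difference, so it is a description here. Mutant pools alone differed from the negative control by 1.29 (limma adjusted p = 1.00) and wild-type pools alone by 1.56 (limma adjusted p = 0.597). Between the transgenic groups the mutant minus wild-type difference was -0.27 (SE 0.203, 95% interval -0.71 to 0.17, limma adjusted p = 0.928); leaving out mutant replicate 2 gave -0.43, and leaving out mutant replicate 4 gave -0.12.

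The size of the Thy1 gap depends on the amount added before taking logs, because 3.74 lies below it: the log2 difference was 2.16 after adding 2.06 and 0.64 after adding 33.0. The negative control's value also lies below the filter's intensity of 17.3, so 1369652_at was tested through the transgenic pools. Of these, mutant replicates 1 and 4, at 17.1 and 13.2, lie below 17.3 too. The second Thy1 probe set, 1369651_at, lay below the filter, with 2.07 to 15.7 in mutant pools, 6.25 to 11.5 in wild-type pools, and 10.5 for the negative control. There 4 transgenic pools lay above and 4 below the negative control, unlike on 1369652_at. For Thy1 and all genes that follow, fewer cells of a type and less RNA per cell cannot be told apart in such pools.

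Ncam1, the neural cell adhesion molecule itself, gave the largest mutant minus wild-type difference of the members, on 1 of its 3 probe sets. On 1377368_at the mutant replicates 1 to 4 had 147, 95.3, 166 and 188, the wild-type replicates 1 to 4 had 107, 107, 65.0 and 131, and the negative control had 146. Mutant replicates 1, 3 and 4 lay above every wild-type pool, and mutant replicate 2 lay below 3 of the 4. The difference was 0.51 (SE 0.213, 95% interval 0.046 to 0.97, unadjusted p = 0.0335, limma adjusted p = 0.928). It was 0.32 without wild-type replicate 3, which had the lowest value, and 0.70 without mutant replicate 2. Both transgenes together differed from the negative control by -0.26 (95% interval -0.95 to 0.43, limma adjusted p = 1.00), with 3 of 8 pools above it. Mutant pools alone differed from it by -0.0067 and wild-type pools alone by -0.51 (95% interval -1.24 to 0.21, limma adjusted p = 0.980).

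On 1379389_at, Ncam1 had 93.8, 89.4, 84.1 and 112 in mutant replicates 1 to 4 and 68.2, 82.2, 70.0 and 86.5 in wild-type replicates 1 to 4. Mutant replicates 1, 2 and 4 lay above every wild-type pool, and mutant replicate 3 lay just below wild-type replicate 4. The groups differed by 0.28 (SE 0.129, 95% interval -1.5e-04 to 0.56, unadjusted p = 0.0501, limma adjusted p = 0.928). The negative control, at 117, lay above all 8 transgenic pools, and both transgenes together differed from it by -0.43 (SE 0.192, 95% interval -0.85 to -0.018, unadjusted p = 0.0422, limma adjusted p = 1.00). Mutant pools alone differed from it by -0.29 and wild-type pools alone by -0.57 (limma unadjusted p = 0.0143, adjusted p = 0.980).

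The remaining Ncam1 probe set, 1368320_at, gave nearly equal means of 73.7 ± 6.88 for mutant and 73.8 ± 9.40 for wild-type pools (SD, n = 4 each). Mutant minus wild-type was 0.0011, with a 95% interval of -0.28 to 0.28. Here too all 8 transgenic pools lay below the negative control, at 89.3 (difference -0.26, 95% interval -0.67 to 0.16, limma adjusted p = 1.00). Ncam1 transcripts are spliced into several forms; the sources used here do not say which form each probe set reads, and the differences between probe sets were not tested. The summed neuronal markers were 26588 to 31589 in mutant pools, 29179.5 to 30083 in wild-type pools, with 30240.5 for the negative control.

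Markers of motor neurons and of sensory ganglia, which also carry Ncam1, were set beside these values. Of 6 motor neuron markers 5 had the higher value in mutant pools (median difference 0.26, beside 0.013 over all tested) and 1 the lower, at -0.026. Their summed intensity was 3380.0 to 4827 in mutant pools, 3034 to 3824 in wild-type pools, with 3186 for the negative control. Most of this sum was Prph alone, at 2067 to 2985 in mutant and 2090 to 2632 in wild-type pools. Isl1, a transcription factor of motor and sensory neurons, differed by 0.45 (SE 0.140, unadjusted p = 0.00723, limma adjusted p = 0.928). Of 5 sensory ganglion markers above the filter 3 had the higher value in mutant pools (median difference 0.18) and 2 the lower, down to -0.22. The summed intensity of the 6 on the array was 3626 to 5210.1 in mutant pools, 3431 to 3992 in wild-type pools, with 3700.1 for the negative control. Among them Runx1, a transcription factor of sensory neurons, differed by 0.64 (unadjusted p = 0.00560, limma adjusted p = 0.928) and Sncg, a synuclein of sensory and motor neurons, by 0.34 (unadjusted p = 0.00816, limma adjusted p = 0.928). Sncg alone made up most of the sensory ganglion sum, at 2843 to 4433 in mutant and 2614 to 2927 in wild-type pools. Isl1, Runx1 and Sncg were picked after their values were seen. The part of neuronal, motor neuron or sensory ganglion cells in the differences of the members was not tested.

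L1cam, which gives the L1 family its name and guides axon growth and bundling, had 738, 829, 799 and 759.8 in mutant replicates 1 to 4 and 726, 621, 624 and 1012 in wild-type replicates 1 to 4, with 629.9 in the negative control. The mutant pools lay close together inside the range of the wild-type pools, of which replicate 4 was highest and replicates 2 and 3 lowest. L1cam differed between mutant and wild-type by 0.095 (SE 0.132, 95% interval -0.19 to 0.38, limma adjusted p = 0.955), by 0.25 without wild-type replicate 4, by 0.017 without wild-type replicate 2 and by 0.020 without wild-type replicate 3. Both transgenes together differed from the negative control by 0.26 (95% interval -0.17 to 0.69, limma adjusted p = 1.00), with 6 of 8 pools above it.

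Nrcam, an L1-family protein of growing axons and later of nodes of Ranvier, had 3 probe sets above the filter. On 1377001_at it averaged 408 ± 10.3 in mutant and 401 ± 6.34 in wild-type pools (SD, n = 4 each). Its SD within groups, 0.030 on the log2 scale, was the smallest among the 15 member probe sets, whose median was 0.22; on 1371036_at it was 0.11 and on 1392734_at 0.22; the median over all tested was 0.18. All 8 transgenic pools, at 394 to 419, lay below the negative control at 441, a difference of -0.12 (95% interval -0.37 to 0.13, limma adjusted p = 1.00). On 1371036_at Nrcam averaged 984 ± 72.5 in mutant and 966 ± 77.3 in wild-type pools (SD, n = 4 each), and the negative control had 1001. On 1392734_at it averaged 463 ± 29.3 in mutant and 473 ± 90.9 in wild-type pools, and the negative control had 462. The wild-type spread there included wild-type replicate 2, the lowest of all pools at 345. Mutant minus wild-type lay between -0.012 and 0.027 on the 3 probe sets. On 1392734_at it was -0.15 without wild-type replicate 2 and -0.26 when the actin ratio entered the fit, with a limma adjusted p of 1.00.

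Nfasc (neurofascin), which gathers sodium channels at nodes and at the start of the axon, was brightest on 1374164_at, with 639 ± 19.1 in mutant and 629 ± 33.9 in wild-type pools (SD, n = 4 each). Mutant minus wild-type there was 0.024 (95% interval -0.14 to 0.19). All 8 transgenic pools lay above the negative control at 591, a difference of 0.097 (95% interval -0.15 to 0.34, limma adjusted p = 1.00). The other Nfasc probe sets above the filter had lower means in mutant pools, 46.2 ± 9.27 beside 51.3 ± 13.2 in wild-type pools on 1380917_at and 79.0 ± 5.40 beside 86.0 ± 8.12 on 1393181_at. Their differences were -0.12 and -0.11, and over the 3 probe sets the limma adjusted p was 0.942 to 0.977. On 1380917_at wild-type replicate 2 was the highest of the 9 pools, at 70.6. Below the filter, 1370877_at had 3.52 to 24.5 over the 8 transgenic pools beside 8.08 for the negative control, and 1388041_s_at had 0.966 to 9.11 beside 6.31.

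Chl1, the close homolog of L1, had 751, 1042, 861 and 1258 in mutant replicates 1 to 4 and 901, 1216, 877 and 1118 in wild-type replicates 1 to 4, with 943 in the negative control. Both groups spread to either side of the negative control, with 4 transgenic pools above and 4 below it. Chl1 differed between mutant and wild-type by -0.084 (SE 0.148, 95% interval -0.40 to 0.24, limma adjusted p = 0.965), and its sign turned without mutant replicate 1, at 0.032. Both transgenes together differed from the negative control by 0.068 (95% interval -0.41 to 0.55, limma adjusted p = 1.00).

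**Figure D2:**
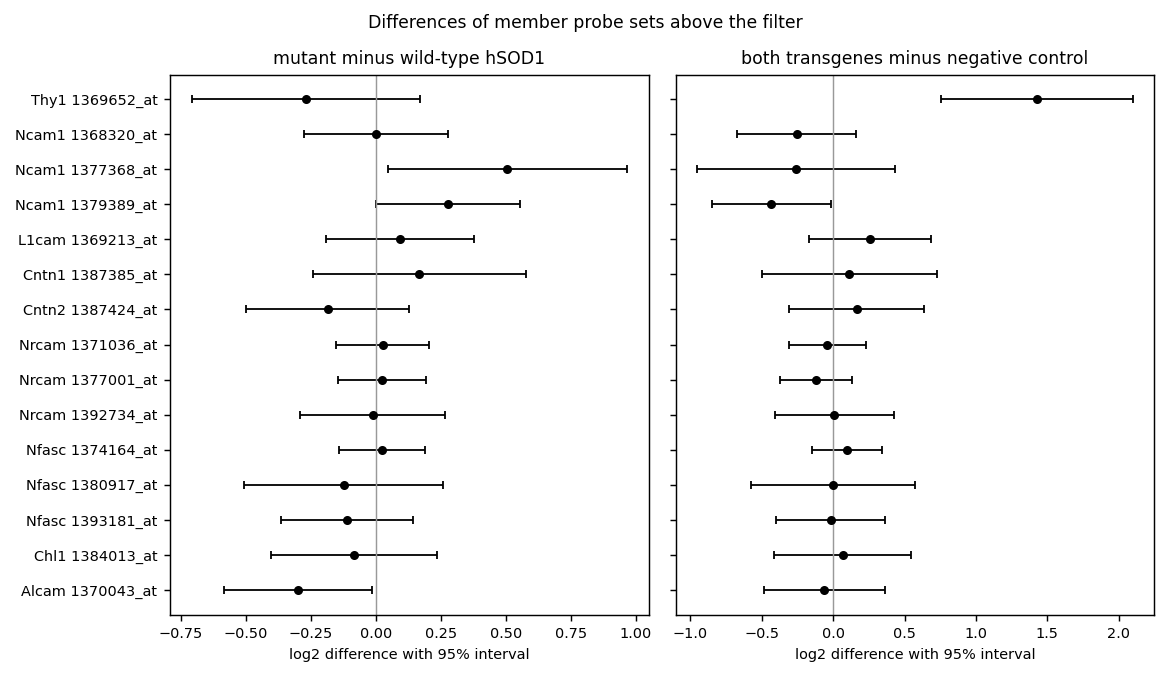
Log2 difference (x axis, dots) with its 95% interval (lines) for the 15 member probe sets above the filter, mutant minus wild-type hSOD1 in the left panel and both transgenes minus the negative control in the right. Intervals lie away from 0 for Ncam1 1377368_at and Alcam on the left and for Thy1 1369652_at and Ncam1 1379389_at on the right, and none of these passed after adjustment.

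Cntn1, a contactin that joins Nrcam and Nfasc in axonal contacts, had 36.3, 32.4, 35.9 and 35.8 in mutant replicates 1 to 4 and 37.2, 17.0, 34.7 and 36.4 in wild-type replicates 1 to 4, with 29.5 in the negative control. Wild-type replicate 2 was far below the other transgenic pools, which lay close together. Mutant minus wild-type was 0.17 (SE 0.190, 95% interval -0.24 to 0.58, limma adjusted p = 0.950), and -0.034 without that pool. Cntn2, the contactin of commissural axons, had 39.1, 42.0, 49.9 and 44.4 in mutant replicates 1 to 4 and 40.6, 61.6, 54.0 and 49.0 in wild-type replicates 1 to 4, with 41.1 in the negative control. Wild-type replicate 2 was highest here, and the groups overlapped. For Cntn2 mutant minus wild-type was -0.19 (SE 0.146, 95% interval -0.50 to 0.13, limma adjusted p = 0.928), and -0.10 without that pool. Both transgenes minus the negative control was 0.11 for Cntn1 (95% interval -0.50 to 0.73) and 0.17 for Cntn2 (95% interval -0.31 to 0.64), each with a limma adjusted p of 1.00.

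Alcam, an adhesion molecule of growing axons that also binds CD6 on lymphocytes, had 796, 869, 743 and 753 in mutant replicates 1 to 4 and 783, 1282, 843 and 1056 in wild-type replicates 1 to 4, with 915 in the negative control. Wild-type replicates 2 and 4 lay above every mutant pool, and wild-type replicates 1 and 3 lay among them. The Alcam difference, mutant minus wild-type, was -0.30 (SE 0.131, 95% interval -0.58 to -0.016, unadjusted p = 0.0401, limma adjusted p = 0.928). It was -0.17 without wild-type replicate 2 and -0.072 when the actin ratio entered the fit. Because the groups do not overlap in that ratio, the fit cannot tell RNA quality and group apart. Both transgenes together differed from the negative control by -0.062 (95% interval -0.49 to 0.36, limma adjusted p = 1.00). Alcam is also made outside neurons. The summed markers of meninges and mesenchyme were 51.7 to 65.9 in mutant pools, 46.1 to 71.1 in wild-type pools, with 78.1 for the negative control. Only 1 of these 8 markers lay above the filter, so the sum is mostly low signal. The part of such cells in the Alcam values was not tested.

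The promoter windows of Alcam and Cntn1 are shown as examples of members that departed in opposite directions in wild-type replicate 2. Alcam departed by 0.53 and Cntn1 by -0.81 on the log2 scale from the mean of the other wild-type pools. Nfasc 1380917_at departed further up than Alcam, by 0.57. Its 2 windows are not printed, and 1 of them held a match to the CCAAT box and to the E-box. No link between windows and departures was tested. Each window runs 5' to 3' along the gene's strand, with 250 bases before and 50 after its start, as RefSeq gives it for the rat build GRCr8. Alcam's is chr11:61805207-61805506 and Cntn1's chr7:125252060-125252359, both on the plus strand. Capitals mark a match, on either strand, to the GC box (GGGCGG), to the box named CCAAT, to the TATA core (TATAA) or to an E-box (CAGCTG); none of these motifs contains another.
Alcam: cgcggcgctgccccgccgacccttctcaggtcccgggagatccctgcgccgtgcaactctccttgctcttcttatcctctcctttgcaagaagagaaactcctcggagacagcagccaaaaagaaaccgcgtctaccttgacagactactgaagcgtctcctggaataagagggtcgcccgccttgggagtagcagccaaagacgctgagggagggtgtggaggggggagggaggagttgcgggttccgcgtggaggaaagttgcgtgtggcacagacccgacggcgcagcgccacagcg
Cntn1: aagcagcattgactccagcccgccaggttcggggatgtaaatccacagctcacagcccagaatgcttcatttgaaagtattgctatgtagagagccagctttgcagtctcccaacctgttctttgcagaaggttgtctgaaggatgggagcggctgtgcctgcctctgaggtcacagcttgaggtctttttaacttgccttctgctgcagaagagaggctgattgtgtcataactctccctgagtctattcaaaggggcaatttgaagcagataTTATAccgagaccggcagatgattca
Alcam's window held no match and had a GC content of 62.0%. Cntn1's window held 1 match, to the TATA core on the other strand, and had a GC content of 49.0%. The median GC content over 33469 rat windows of that length was 51.7%, and 33.1% of them held the GC box, 37.5% the CCAAT box, 26.2% the TATA core and 15.1% the E-box. RefSeq windows were at hand for 5 members, 6 windows in all, of which 0 held the GC box and 1 each the CCAAT box, the TATA core and the E-box. A match describes letters and nothing about binding.

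**Figure D3:**
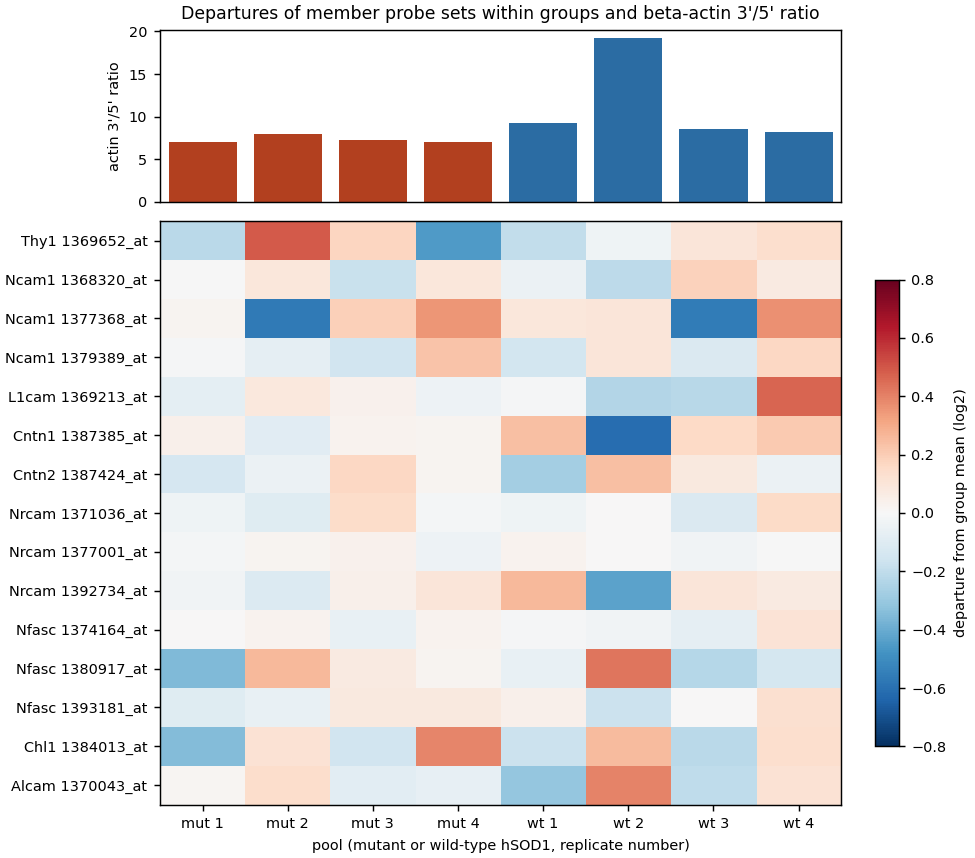
Beta-actin 3'/5' ratio of each transgenic pool (upper panel, bars from 0, mutant hSOD1 pools left of wild-type hSOD1 pools) and the departure of each member probe set above the filter from its group mean on the log2 scale (lower panel, red above and blue below). Wild-type replicate 2, with a ratio of 19.2, is low for Cntn1 and Nrcam 1392734_at and high for Alcam and Nfasc 1380917_at.

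Wild-type replicate 2 was the highest or lowest of the 9 pools at 7 of 15 member probe sets, or 46.7%, and at 41.0% of all tested; the other 8 pools were so at 17.6% to 24.4% of all tested. It was highest for Cntn2, Nfasc 1380917_at and Alcam, and lowest for Ncam1 1368320_at, L1cam, Cntn1 and Nrcam 1392734_at. Correlations between members' departures from their group means took either sign. Over the 8 transgenic pools, which share arrays and RNA quality, they had a median of 0.086 over 105 pairs of probe sets and ran from -0.91 to 0.95; without wild-type replicate 2 the range was -0.79 to 0.84. The highest joined Cntn1 with Nrcam 1392734_at, at 0.70 without that pool, and the lowest Alcam with the same Nrcam probe set, at -0.79 without it. Without that pool the highest joined Cntn1 with Ncam1 1377368_at, at 0.029 when it is kept.

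The genes with the most similar pattern were looked up for the brightest probe set of each member above the filter, by Pearson's r of log2 values over the 9 pools among all tested, which favours high values. They were C20h22orf15 (0.97) and Tollip (0.94) for Thy1, Clic2 (0.98) and Mindy4 (0.97) for Ncam1, and Fam32a (0.95) and Ggnbp1 (0.93) for L1cam. For Nrcam they were Cpsf3 (0.95) and Exog (0.95), for Nfasc Strada (0.97) and Ubtf (0.92), for Chl1 Phc2 (0.99) and Gga3 (0.97), and for Cntn2 Nosip (0.98) and Ctnnd2 (0.96). Cntn1 was most like Glul (0.98) and Mapre1 (0.98), at 0.84 and 0.81 without wild-type replicate 2. Alcam was most like Snorc (0.95) and Ngfr (0.94), at 0.86 and 0.85 without that pool. No r was taken without the negative control, where Thy1 1369652_at had 3.74 beside 13.2 to 33.0 in the transgenic pools.

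Partners and relatives of the members were followed in 5 lists of 74 genes, of which 66 were on the array and 52 above the filter, each at its brightest probe set. Of the 52, 0 passed in either comparison, and 2, or 3.85%, stood at an unadjusted p under 0.05 in each (all tested: 4.96% between mutant and wild-type pools, 3.12% against the negative control). Ncam2, a close relative of Ncam1, had 43.7, 52.6, 56.3 and 47.9 in mutant replicates 1 to 4 and 64.7, 70.0, 72.1 and 67.2 in wild-type replicates 1 to 4. Every mutant pool lay below every wild-type pool, where 2.96% of all tested were apart without overlap in either direction. How many of the 52 were apart was not counted, and Ncam2 had the smallest unadjusted p among them between these groups. The negative control, at 54.2, lay among the mutant pools. Mutant minus wild-type was -0.40 (SE 0.124, 95% interval -0.67 to -0.13, unadjusted p = 0.00660, limma adjusted p = 0.928), and -0.45 to -0.34 when any 1 transgenic pool was left out.

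Among cytoplasmic anchors of the L1 family, 6 of 12 had the higher value in mutant pools (median difference -0.0019, beside 0.013 over all tested). Ank2, an ankyrin that ties membrane proteins to the spectrin skeleton, averaged 1295 ± 56.0 in mutant and 1491 ± 146 in wild-type pools (SD, n = 4 each), and the negative control had 1257. Mutant minus wild-type was -0.20 (SE 0.0797, unadjusted p = 0.0270, limma adjusted p = 0.928). In mutant pools the value was the higher one for 6 of 11 genes of Ncam1 polysialylation and signalling (median 0.047), 5 of 9 IgLON genes and other contactin relatives (median 0.0071), 1 of 4 contactin partners (median -0.012) and 11 of 16 nectin, SynCAM, JAM and other adhesion genes (median 0.026).

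Against the negative control, the transgenic value was the higher one for 7 of 12 anchors, 6 of 11 genes of Ncam1 polysialylation and signalling, 7 of 9 IgLON genes and contactin relatives, 2 of 4 contactin partners and 8 of 16 of the last list. Of all tested, 46.5% were higher. The list medians, in that order, were 0.089, 0.032, 0.097, -0.073 and -0.0017, beside -0.017 over all tested. All of these rest on the 1 control pool. St8sia4, one of the enzymes that build polysialic acid, averaged 67.1 ± 9.48 over the 8 transgenic pools, and the negative control had 52.1 (limma adjusted p = 1.00). Mcam, an adhesion molecule best known from vessels and melanoma, averaged over the same pools 29.1 ± 9.03 and had 13.3 in the negative control, a difference of 0.76 (SE 0.287, unadjusted p = 0.0192, limma adjusted p = 1.00). F11r (JAM-A), a protein of tight junctions, averaged 61.8 ± 8.53 and had 41.3 in the negative control, a difference of 0.49 (SE 0.214, unadjusted p = 0.0394, limma adjusted p = 1.00). The summed endothelial markers were 49.3 to 65.5 in mutant pools, 41.0 to 57.7 in wild-type pools, with 55.1 for the negative control. Only 1 of these 5 markers lay above the filter, so the sum is mostly low signal. The part of endothelial cells in the Mcam values was not tested. The Mcam value of the negative control lies below the filter's intensity of 17.3, so Mcam was tested through the transgenic pools, and its difference was 0.98 after adding 2.06 and 0.41 after adding 33.0 to the intensities.

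**Figure D4:**
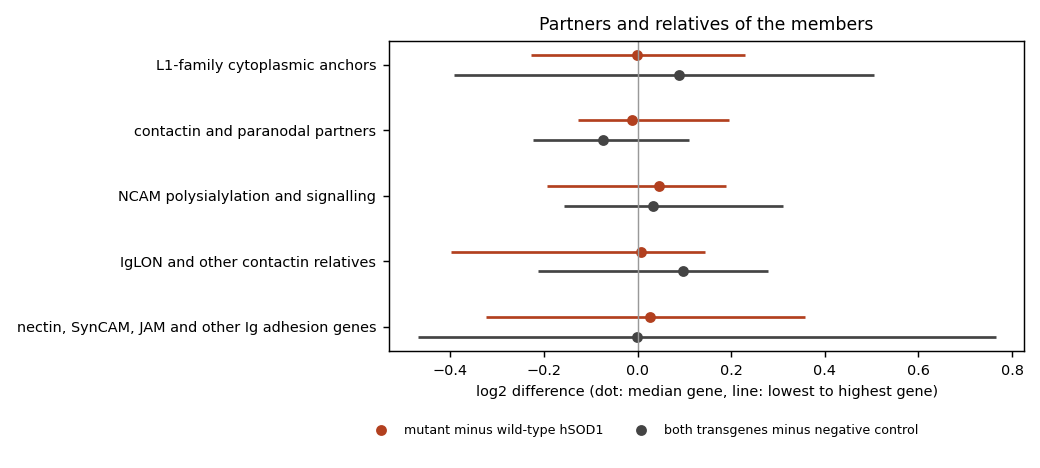
Log2 differences (x axis) of 5 lists of partners and relatives, with the median gene as a dot and the lowest to highest gene as a line, for mutant minus wild-type hSOD1 (red, upper) and both transgenes minus the negative control (grey, lower). The medians lie between -0.073 and 0.097, and no gene of these lists passed.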

How the data were processed

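RNA of 9 pools was measured on Affymetrix rat arrays, grouped by their descriptions. The deposited values are linear intensities, 1 for each probe set on each array. The authors' software was not given in the sources used here. The authors' scaling was inferred from equal means (150.05) once the top and bottom 2% were trimmed, and none was added. No sample column was left unused.

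Of 31099 probe sets, 57 controls were set aside. The platform annotation gave 20826 of the other 31042 a single symbol, and 20758 of their gene identifiers were found in RefSeq's rat table. Intensities were taken to log2 after adding 8.25 (their 25th percentile). Probe sets up to the 40th percentile of the mean were left out (intensity about 17.3 over 9 pools), and 18625 were tested with limma 3.58.1 (R 4.3.3; eBayes with trend, Benjamini-Hochberg): on 8 arrays for mutant against wild-type, on all 9 against the negative control, which is assumed to vary like the other pools. The fit was tested on simulated data. The number of arrays limits the precision. The p-values set a difference against the spread between pools within the transgenic groups, drawn towards that of probe sets of like intensity. No spread between control pools could be measured.

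Every member probe set was eligible for naming, and from each list the genes past the threshold or with the 2 smallest p of a comparison. Members and lists were chosen with earlier results of these data known. The alternatives tried are in the closing section.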

Additional observations from a re-analysis of the deposited data

Results flagged for a closer look

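In 34 groups of 4 pools (15 member probe sets and the actin and GAPDH 3'/5' ratios, in mutant and in wild-type pools) the highest and lowest pool were set against the nearest other by Dixon's criterion. Chance marks about 1 group in 20, and 3 were marked. Cntn1 in mutant replicate 2, at 32.4, lay below the other mutant pools, which differ little among themselves (35.8 to 36.3). Cntn1 in wild-type replicate 2, at 17.0, lay far below the other wild-type pools (34.7 to 37.2). The actin ratio of wild-type replicate 2, at 19.2, lay far above those of the other wild-type pools.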

How the results depend on the processing

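In every alternative of all 4 comparisons 0 member probe sets passed in limma. Between mutant and wild-type pools limma called 3 of all probe sets, 0 with the actin ratio as a term (681 at an unadjusted p under 0.05), 0 without a trend (996), 1 with the le2 tag as a term, 1 without a filter, 2 with a filter at the 60th percentile, 2 after quantile normalization and 1 to 3 when 1 pool was left out (1 without mutant replicate 1, wild-type replicate 1 or wild-type replicate 3). Against the negative control it called 0 for both transgenes, 1 after adding 2.06 in place of 8.25, and 0 to 1 when 1 pool was left out (1 without wild-type replicate 1), and likewise 0 to 1 for wild-type pools (1 without wild-type replicate 1). Whether the replicate numbers pair the pools cannot be settled from so few pools. The departures of same-numbered pools correlated at 0.12, 0.087, -0.074 and 0.20, and those of differently numbered pools at -0.23 to 0.21. With the number as a block limma called 3 between mutant and wild-type pools (Ddx42, Ptbp3 and Tm9sf3). Without the block they were Ddx42, Ptbp3 and Sst. At an unadjusted p under 0.05 stood 1212 with the block, against 923 without it. The block was not run for comparisons with the single control pool. Mutant minus wild-type turned sign with the actin ratio as a term for Ncam1 1368320_at (-0.12), L1cam (-0.050), Cntn1 (-0.20), Nfasc 1380917_at (0.16) and Chl1 (0.063), and after quantile normalization for Ncam1 1368320_at (-0.0044). Leaving out 1 pool turned it within ranges of -0.068 to 0.062 for Ncam1 1368320_at, -0.034 to 0.25 for Cntn1, -0.022 to 0.077 for Nrcam 1371036_at, -0.15 to 0.074 for Nrcam 1392734_at, -0.21 to 0.021 for Nfasc 1380917_at and -0.21 to 0.032 for Chl1. Both transgenes minus the negative control turned sign with the actin ratio as a term for Nfasc 1393181_at (0.064) and Chl1 (-0.043), with the le2 tag for Cntn2 (-0.039) and Chl1 (-0.19), after adding 33.0 for Nfasc 1380917_at (0.0025), and after quantile normalization for Nrcam 1392734_at (-0.0043), Nfasc 1380917_at (0.031) and Nfasc 1393181_at (7.1e-05). Leaving out 1 pool turned it within -0.036 to 0.078 for Nrcam 1392734_at, -0.075 to 0.056 for Nfasc 1380917_at and -0.039 to 0.011 for Nfasc 1393181_at. The cause of these turns was not tested. Mutant and wild-type pools did not overlap in the actin ratio, so a fit with it as a term cannot tell RNA quality and group apart. The actin 3'/5' ratio, on the log2 scale, differed between mutant and wild-type pools by -0.53, and by -0.65 to -0.24 when 1 pool was left out (exact two-sided permutation p of 0.0286, and 0.0286 to 0.114); the GAPDH ratio differed by -0.16, and by -0.21 to -0.058 (exact p of 0.0571, and 0.0286 to 0.2). Of the member probe sets, Thy1, Cntn1, Cntn2 and Nfasc 1380917_at lie below a filter at the 60th percentile and have no value there; in the other member values and alternatives the sign did not turn. Low signal limits Thy1, Cntn1 and Cntn2, the dimmest members, and 1 control pool limits every comparison with it.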

Other observations

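In the gene order of the rat assembly GRCr8 several members neighbour relatives. Cntn2 and Nfasc follow each other on chromosome 13, Chl1 lies between Cntn3 and Cntn6 on chromosome 4, and Nectin1 precedes Thy1 on chromosome 8, which also carries Ncam1. Of the neighbours on chromosome 13, Cntn2 differed between mutant and wild-type pools by -0.19, and Nfasc by 0.024, -0.12 and -0.11 on its 3 probe sets above the filter (log2 scale, limma adjusted p of 0.928 to 0.977).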
